A study of Mus musculus with 6 samples.

Results

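RNA-seq values were examined for 9 matrix metalloproteinase genes (Mmp2, Mmp3, Mmp8, Mmp9, Mmp10, Mmp12, Mmp13, Mmp14 and Mmp19) and for Timp1, the gene of a tissue inhibitor of metalloproteinases. The genes were taken by symbol, and all 10 were found among the 18824 genes of the deposited table. The 6 libraries came from skin of C57BL/6j mice under MC903, an analogue of vitamin D used to provoke an eczema-like inflammation. The 3 CCR3 libraries (replicates 1, 2 and 4) carry conflicting compound names. Their treatment label reads SC144, which inhibits gp130, the signalling subunit shared by receptors of the interleukin-6 family. The title and design of the series read SB328437, which blocks the chemokine receptor CCR3. The 3 VEH libraries (replicates 1, 2 and 4) received vehicle. Skin without MC903 was not analysed here, and the sources used here do not give dose, timing, age, sex or skin site.

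Matrix metalloproteinases are zinc-dependent enzymes that cut collagens, elastin and other proteins of the extracellular matrix, and that also trim cytokines and cell surface proteins. Most are made as inactive precursors and are held in check by the TIMP proteins, which sit in the active site. In inflamed or wounded skin they come from keratinocytes, fibroblasts, macrophages and neutrophils, and many of their genes respond to interleukin-1, to tumour necrosis factor and to the transcription factor AP-1. In whole skin, fewer cells of a type and less RNA per cell cannot be told apart.

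Mmp12, the elastase of macrophages, was the 1 gene of the 10 that passed the test. It fell in CCR3 skin to 15.4 ± 3.44 FPKM, against 35.2 ± 3.77 FPKM in VEH skin (SD, n = 3 each). FPKM is the number of fragments scaled to transcript length and to the number of mapped reads. The other 9 genes did not pass. Mmp8 was higher in every CCR3 library than in any VEH library, and in the remaining 8 genes the groups overlapped. Of all tested genes, 28.6% had groups without overlap. The test was limma on log2(FPKM + 1) over 13063 genes with at least 1 FPKM in 3 libraries, a filter that all 10 genes passed, with Benjamini-Hochberg adjustment at 0.05. It called 2.37% of tested genes lower and 1.36% higher in CCR3, so 1 lower call among 10 genes is set against a background of 3.74% called in either direction. The median log2 fold change of the 10 genes was -0.06 (5 positive and 5 negative) and that of all tested genes was -0.04.

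RefSeq gives 8 transcription starts for 7 of the genes (assembly GRCm38.p6). The 120 bases before the start are shown for 5 genes that lie in 1 cluster on chromosome 9, of which Mmp12 alone passed. All are on the plus strand and run 5′ to 3′, and capitals mark TGANTCA, the binding motif of AP-1, and TATAAA, the TATA box. The second of 2 listed starts is shown for Mmp12.
Mmp12, chr9:7347254-7347373: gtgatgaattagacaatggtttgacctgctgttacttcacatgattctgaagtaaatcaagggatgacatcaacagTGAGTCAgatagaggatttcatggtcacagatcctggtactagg
Mmp3, chr9:7445702-7445821: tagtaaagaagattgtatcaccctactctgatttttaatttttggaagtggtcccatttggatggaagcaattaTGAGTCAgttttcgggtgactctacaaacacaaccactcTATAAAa
Mmp10, chr9:7502222-7502341: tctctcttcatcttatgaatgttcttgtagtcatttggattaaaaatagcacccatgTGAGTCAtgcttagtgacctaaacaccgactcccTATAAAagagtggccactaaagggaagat
Mmp13, chr9:7272394-7272513: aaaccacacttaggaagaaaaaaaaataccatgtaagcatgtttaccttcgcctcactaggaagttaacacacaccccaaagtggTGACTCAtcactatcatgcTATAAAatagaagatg
Mmp8, chr9:7558309-7558428: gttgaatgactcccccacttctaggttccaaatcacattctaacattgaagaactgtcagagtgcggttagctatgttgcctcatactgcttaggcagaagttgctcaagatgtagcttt

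The stretches before Mmp12, Mmp3, Mmp10 and Mmp13 each hold 1 AP-1 motif, whose first base lies 44, 46, 63 and 35 bases before the listed start. The stretch before Mmp8 holds none, and the TATAAA of its window lies on the minus strand, across the start, so that the printed plus strand shows only its edge, in small letters. In Mmp12 a TATAAA begins at base 5 after the start. Both strands were searched over the 300 bases from 250 before to 50 after each start. AP-1 motifs were found in no window of Mmp8, Mmp14 or Timp1, nor at the first start of Mmp12. Among all 32851 such RefSeq windows, TGANTCA is held by 7.81% and TATAAA by 13.6%. A match is only a match of letters. Mmp2, Mmp9 and Mmp19 had no listed start and were not searched. Of the 4 genes with an AP-1 motif among the 7 searched, only Mmp12 passed. The log2 fold changes were -1.16 for Mmp12, -0.13 for Mmp3, -0.38 for Mmp10 and 0.20 for Mmp13. The 95% intervals of Mmp3, Mmp10 and Mmp13 span both directions, so their signs are uncertain.

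**Figure D1:**
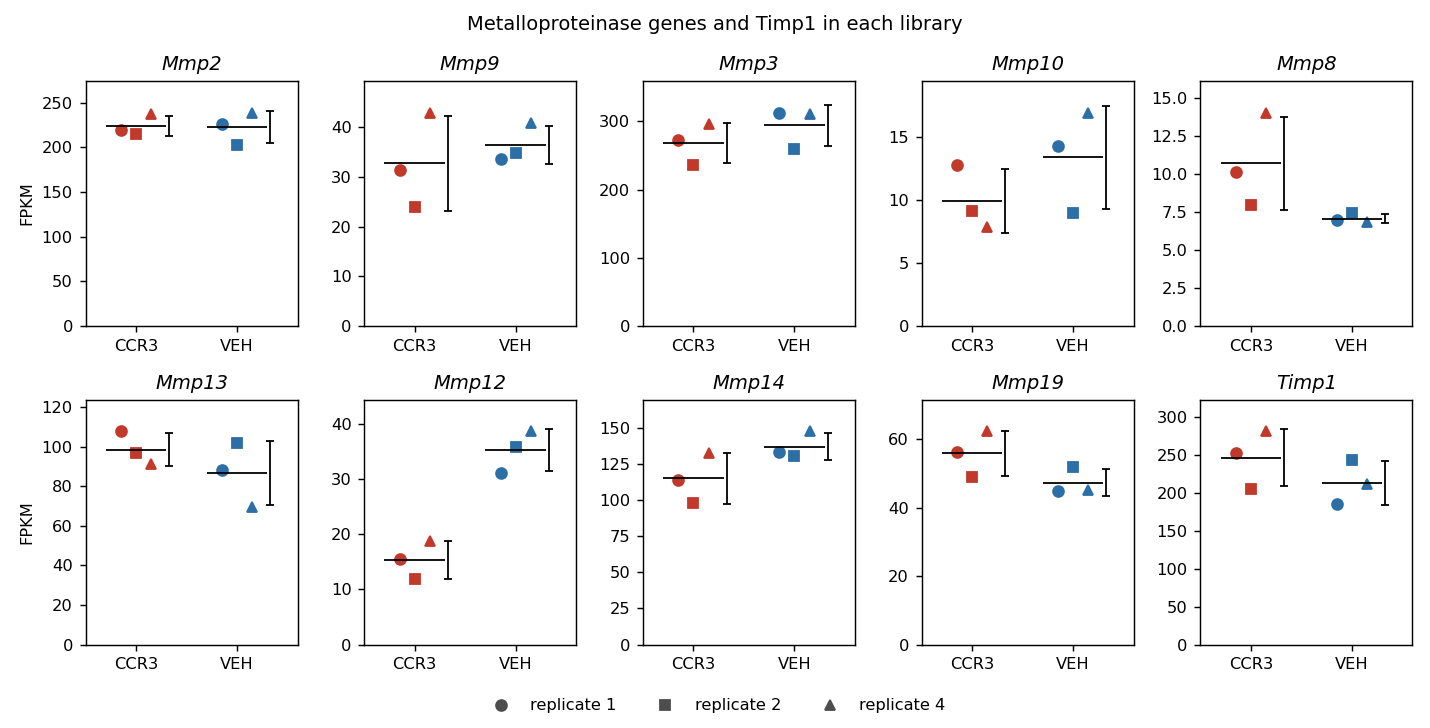
FPKM (vertical axes, each from 0) of the 9 Mmp genes and Timp1 in 3 CCR3 libraries (red, left) and 3 VEH libraries (blue, right). Symbols mark the replicate number, horizontal lines the means and bars the SD. Mmp12 is lower in every CCR3 library (11.9 to 18.8 FPKM) than in any VEH library (31.2 to 38.6 FPKM), and Mmp8 is higher in every CCR3 library.

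Mmp12 stood at 15.4, 11.9 and 18.8 FPKM in CCR3 replicates 1, 2 and 4, against 31.2, 35.9 and 38.6 FPKM in VEH replicates 1, 2 and 4. The lowest VEH library was well above the highest CCR3 library. The log2 fold change was -1.16 ± 0.15 (SE; limma adjusted p = 0.0100, 95% interval -1.51 to -0.82), a 2.29-fold lower mean in CCR3. By p, Mmp12 was number 69 of the tested genes, and by the size of its fall number 6. The call was lost without VEH replicate 4 (limma adjusted p = 0.0651, log2 fold change -1.10) and held without each of the other 5 libraries in turn. No 50-base window of the Mmp12 transcript occurs in another gene.

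Macrophage and monocyte markers were set beside it. Of 15 listed, 14 were tested, and 1, the efferocytosis receptor gene Mertk, passed and was higher in CCR3. The median log2 fold change of the 14 was -0.19, with 10 negative and 4 positive. At an unadjusted limma p under 0.05 were 4 of the 14, beside 23.1% of all tested genes. All CCR3 values lay below all VEH values in 2 and above them in 2, beside 18.3% and 10.4% of all tested genes. The summed level of all 15 was 2744 to 3489 FPKM in CCR3 and 3232 to 3812 FPKM in VEH, so the groups overlapped. None of the 15 was at 0 in any library. Relative to Cd68, a lysosomal protein gene of macrophages, Mmp12 stood at 0.115, 0.0983 and 0.112 in CCR3 replicates 1, 2 and 4, against 0.190, 0.238 and 0.239 in VEH replicates 1, 2 and 4. The ratio to Adgre1, an adhesion receptor gene of macrophages, was 0.308 to 0.385 in CCR3 and 0.630 to 0.814 in VEH. The ratio of Mmp12 was lower in CCR3 without overlap for each of the 14 tested markers. Mmp12 itself did not overlap between the groups, so its ratio to any gene that changed little is also apart. The 14 ratios are therefore not separate results. An exact 2-sided permutation test of 3 against 3 libraries cannot give a p below 0.1, so the ratios are given without a test.

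The genes most like Mmp12 over the 6 libraries were sought by the root mean square difference of their log2 deviations from the VEH mean. They were Ccn5, which encodes a secreted matricellular protein (0.0875), Clec7a, which encodes the receptor dectin-1 for fungal glucans (0.125), and Mmp11, a further metalloproteinase gene (0.170). Ccn5 stood at 13.2, 10.7 and 15.1 FPKM in CCR3 replicates 1, 2 and 4, against 25.8, 27.2 and 31.8 FPKM in VEH replicates 1, 2 and 4. Ccn5 and Clec7a passed with log2 fold changes of -1.07 and -1.15 (limma adjusted p = 0.00723 and 0.00306). They were picked for their likeness to a gene that differed, so their own differences are a description.

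The gelatinases, which cut denatured collagen and basement membrane collagen, are Mmp2 and Mmp9. Mmp2, made mainly by fibroblasts, stood at 220, 216 and 237 FPKM in CCR3 replicates 1, 2 and 4, against 226, 203 and 239 FPKM in VEH replicates 1, 2 and 4. The groups overlapped fully, with a log2 fold change of 0.01 ± 0.083 (SE; limma adjusted p = 0.947). The 95% interval, -0.18 to 0.20, corresponds to folds of 0.884 to 1.15. Mmp9, abundant in neutrophils and macrophages, stood at 31.4, 24.0 and 42.9 FPKM in CCR3 replicates 1, 2 and 4, against 33.7, 34.9 and 40.9 FPKM in VEH replicates 1, 2 and 4. Its CCR3 libraries held both the lowest and the highest value of the 6. Its log2 fold change was -0.19 ± 0.184 (SE; limma adjusted p = 0.571), and the interval of -0.61 to 0.24 leaves room for a fold of 0.656 to 1.18.

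The stromelysins Mmp3 and Mmp10 cut proteoglycans, laminin and fibronectin and activate other metalloproteinases. Mmp3 was the most abundant of the 10 genes, with 273, 236 and 295 FPKM in CCR3 replicates 1, 2 and 4, against 312, 259 and 311 FPKM in VEH replicates 1, 2 and 4. Mmp10 was among the least abundant, with 12.8, 9.12 and 7.88 FPKM in CCR3 replicates 1, 2 and 4, against 14.3, 8.96 and 16.9 FPKM in VEH replicates 1, 2 and 4. VEH replicate 2 was low in both genes. The log2 fold changes were -0.13 ± 0.110 for Mmp3 and -0.38 ± 0.230 for Mmp10 (SE; limma adjusted p = 0.495 and 0.350). Of the 50-base windows of the Mmp10 transcript 8.37% also occur in Mmp3, and 8.39% of those of Mmp3 occur in another gene, mostly Mmp10, so reads of 50 bases from these stretches cannot be assigned and the value of Mmp10 beside its far more abundant neighbour is uncertain.

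The collagenases, which cut fibrillar collagen, are Mmp8 of neutrophils and Mmp13, the main interstitial collagenase of mice. Mmp8 stood at 10.1, 7.94 and 14.0 FPKM in CCR3 replicates 1, 2 and 4, against 6.93, 7.41 and 6.81 FPKM in VEH replicates 1, 2 and 4. The VEH libraries lay close together, and CCR3 replicate 2 was only a little above the highest of them. All CCR3 values were above all VEH values in 10.4% of tested genes. The log2 fold change of Mmp8 was 0.51 ± 0.165 (SE; limma adjusted p = 0.126). The gene passed only without CCR3 replicate 2, its lowest CCR3 library (limma adjusted p = 0.0316, log2 fold change 0.68). Without each of the other 5 libraries its adjusted p was 0.0905 to 0.328.

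Neutrophil markers were set beside Mmp8. The summed level of the 13 listed was 2911 to 4233 FPKM in CCR3 and 2589 to 3408 FPKM in VEH, with the maximum in CCR3 replicate 4, where Mmp8 was also highest. Most of this sum came from S100a8 and S100a9, at 2277 and 1646 FPKM in CCR3 replicate 4, so it mainly gives the level of these genes. Of the 7 tested markers 5 were positive and 2 negative. None of the 7 tested markers passed by limma (1 at an unadjusted p under 0.05), and the median log2 fold change was 0.24. Mpo and Elane, which mark early neutrophil precursors, were below 0.1 FPKM in every library. The ratio of Mmp8 to a neutrophil marker depended on the marker. It was higher in CCR3 without overlap for 3 of the 7 tested (S100a8, Cxcr2 and Csf3r) and overlapped between the groups for the other 4 (S100a9, Retnlg, Fpr1 and Il1r2). Relative to Cxcr2, a chemokine receptor gene, Mmp8 stood at 0.220 to 0.263 in CCR3 and 0.144 to 0.160 in VEH, and relative to Il1r2, a decoy receptor gene for interleukin-1, at 0.0645 to 0.0851 in CCR3 and 0.0656 to 0.0772 in VEH.

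Mmp13 stood at 108, 97.0 and 91.2 FPKM in CCR3 replicates 1, 2 and 4, against 88.5, 102 and 69.6 FPKM in VEH replicates 1, 2 and 4. VEH replicate 4 was lowest and the rest were mixed, with a log2 fold change of 0.20 ± 0.134 (SE; limma adjusted p = 0.401). The order on the chromosome is Mmp13, Mmp12, Mmp1b, Mmp3, Mmp1a, Mmp10 and Mmp8. The log2 fold changes in that order were 0.20, -1.16, -0.35, -0.13, untested, -0.38 and 0.51. Of the 6 tested genes of this stretch Mmp12 alone passed, so the signs of the others are not established.

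Mmp14, the membrane-bound enzyme that activates the Mmp2 precursor, stood at 114, 98.1 and 133 FPKM in CCR3 replicates 1, 2 and 4, against 133, 131 and 148 FPKM in VEH replicates 1, 2 and 4. CCR3 replicate 4 reached the VEH range and the other CCR3 libraries lay below it. The log2 fold change was -0.26 ± 0.112 (SE; limma adjusted p = 0.212, unadjusted p = 0.0478). Mmp14 passed only without CCR3 replicate 4 (limma adjusted p = 0.0368, log2 fold change -0.37). That fit called 551 genes higher and 1087 lower, against 178 and 310 with all libraries. Without each of the other 5 libraries the adjusted p of Mmp14 was 0.259 to 0.488. Mmp19, a secreted enzyme of basement membrane proteins, stood at 56.4, 49.1 and 62.3 FPKM in CCR3 replicates 1, 2 and 4, against 45.0, 52.0 and 45.1 FPKM in VEH replicates 1, 2 and 4. Only CCR3 replicate 2 lay within the VEH range, and the log2 fold change was 0.23 ± 0.099 (SE; limma adjusted p = 0.212, unadjusted p = 0.0478). Of the 50-base windows of Mmp19, 25.4% also occur in transcripts of another gene, chiefly Tmem198b, which overlaps it on the opposite strand. No strand information is given, so the value of Mmp19 is uncertain. Tmem198b stood at 4.30 to 5.38 FPKM in CCR3 and 4.6 to 5.96 FPKM in VEH.

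Timp1, whose product binds most active metalloproteinases, stood at 253, 206 and 281 FPKM in CCR3 replicates 1, 2 and 4, against 185, 243 and 212 FPKM in VEH replicates 1, 2 and 4. The groups overlapped, with a log2 fold change of 0.21 ± 0.136 (SE; limma adjusted p = 0.396, 95% interval -0.11 to 0.52). The summed level of the 9 metalloproteinase genes was 840, 749 and 903 FPKM in CCR3 replicates 1, 2 and 4, against 891, 834 and 915 FPKM in VEH replicates 1, 2 and 4. Divided by Timp1, the sum was 3.32, 3.64 and 3.21 in CCR3 replicates 1, 2 and 4, against 4.81, 3.43 and 4.31 in VEH replicates 1, 2 and 4. VEH replicate 2 lay inside the CCR3 range, so the ratio did not separate the groups. The ratio of Mmp9 to Timp1 was 0.116 to 0.152 in CCR3 and 0.143 to 0.193 in VEH.

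**Figure D2:**
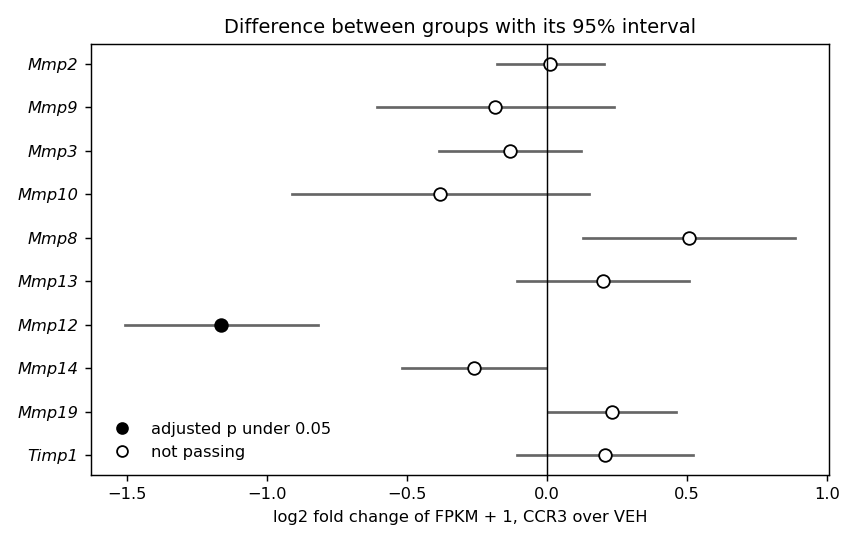
Log2 fold change of FPKM + 1, CCR3 over VEH (horizontal axis), with its 95% interval from limma, for the 9 Mmp genes and Timp1. The filled point, Mmp12 at -1.16, passed the adjusted threshold. The unadjusted intervals of Mmp8, Mmp14 and Mmp19 leave out 0, and these genes did not pass after adjustment.

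At an unadjusted limma p under 0.05 were 4 of the 10 genes (Mmp12, Mmp8, Mmp14 and Mmp19), beside 23.1% of all tested genes. FPKM is scaled by length, so levels can be set side by side between genes, but only roughly. The annotation and counting tool are not given, and the values of Mmp10 and Mmp19 are uncertain because of shared windows. In CCR3 the order of the means was Mmp3, Timp1, Mmp2, Mmp14, Mmp13, Mmp19, Mmp9, Mmp12, Mmp8 and Mmp10. Of these neighbours, the ranges overlapped between Mmp3 and Timp1, Timp1 and Mmp2, Mmp14 and Mmp13, Mmp12 and Mmp8, and Mmp8 and Mmp10. In VEH it was Mmp3, Mmp2, Timp1, Mmp14, Mmp13, Mmp19, Mmp9, Mmp12, Mmp10 and Mmp8, with overlap only between Mmp2 and Timp1 and between Mmp9 and Mmp12. Mmp12 was thus level with Mmp9 in VEH, where their ratio was 0.924, 1.03 and 0.943 in replicates 1, 2 and 4. In CCR3 the ratio was 0.492, 0.496 and 0.437 in replicates 1, 2 and 4. By mean FPKM over the 6 libraries Mmp3 stood at percentile 98.6 of all genes in the table and Mmp8, the lowest, at percentile 60.4.

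**Figure D3:**
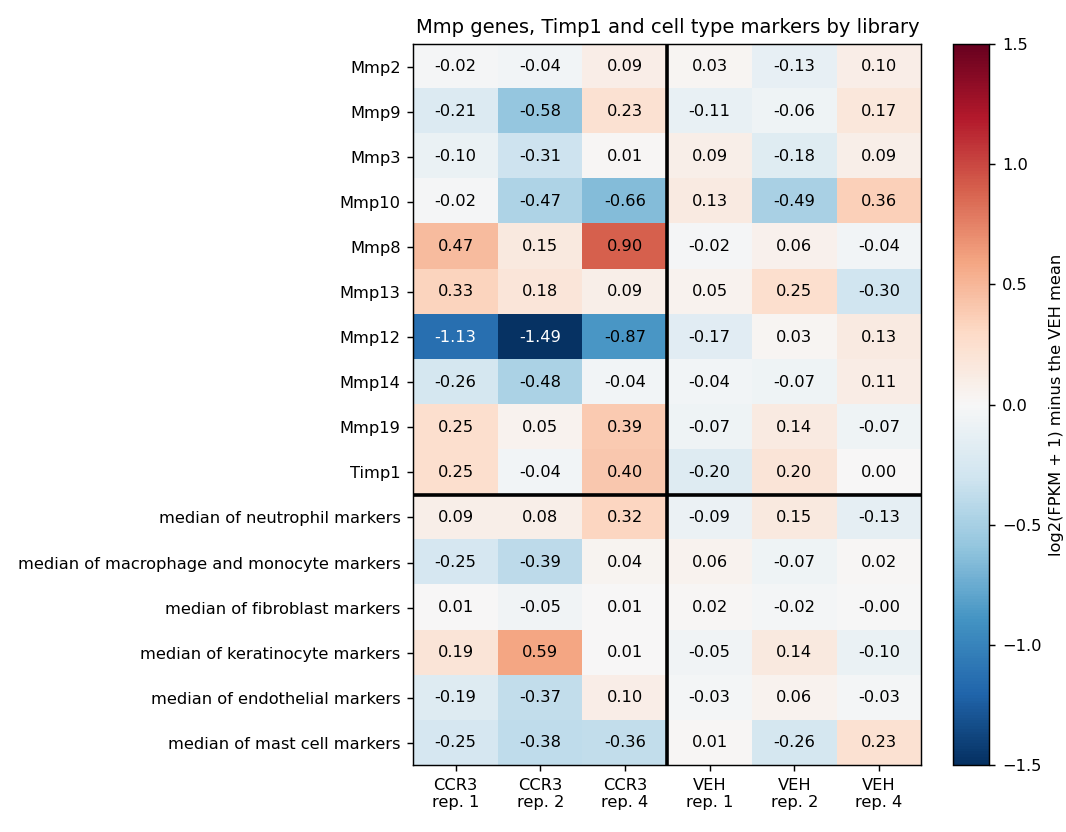
Log2(FPKM + 1) minus the VEH mean (colour and printed value) in 3 CCR3 libraries (left) and 3 VEH libraries (right), for the 9 Mmp genes and Timp1 (above the line) and as the median of each list of cell type markers (below it). Mmp12 is at -0.87 to -1.49 in CCR3. In 8 genes CCR3 replicate 4 is highest and CCR3 replicate 2 lowest among the CCR3 libraries.

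Within the CCR3 group the genes varied in a shared order. In 8 of the 10, all but Mmp10 and Mmp13, replicate 4 was highest, replicate 1 followed and replicate 2 was lowest, an order that 23.4% of tested genes had. In Mmp10 and Mmp13 replicate 1 was highest and replicate 4 lowest. In VEH no order held for more than 3 of the 10. Macrophage and monocyte markers had the order of the 8 genes, with median log2 deviations from the VEH mean of -0.25, -0.39 and 0.04 in CCR3 replicates 1, 2 and 4, and so had endothelial markers (-0.19, -0.37 and 0.10) and neutrophil markers (0.093, 0.083 and 0.32). Keratinocyte markers had the reverse order, at 0.19, 0.59 and 0.01 in CCR3 replicates 1, 2 and 4, and fibroblast markers had the order of the 8 genes within a narrow range, at 0.007, -0.05 and 0.01. The summed level of keratinocyte markers was 11444 to 15649 FPKM in CCR3 and 11144 to 13243 FPKM in VEH, that of endothelial markers 112 to 154 FPKM in CCR3 and 140 to 149 FPKM in VEH, and that of fibroblast markers 2387 to 2742 FPKM in CCR3 and 2499 to 3012 FPKM in VEH. By limma, 0 of 12 keratinocyte markers passed (2 at an unadjusted p under 0.05), 2 of 9 endothelial markers were lower (Cldn5 and Kdr), and 1 of 12 fibroblast markers was lower (Pdgfrb). The median log2 fold change was 0.21 for keratinocyte markers (11 positive and 1 negative). It was -0.13 for endothelial markers (3 positive and 6 negative) and -0.06 for fibroblast markers (5 positive and 7 negative). Mast cell markers summed to 536 to 613 FPKM in CCR3 and 608 to 840 FPKM in VEH, with a median log2 fold change of -0.36, and 0 of 8 passed by limma (5 at an unadjusted p under 0.05). No marker of these 4 lists was at 0 in any library. The part of cell makeup in the differences of the 10 genes was not tested. The spread of Mmp9 was 29.1% of its mean in CCR3 and 10.6% in VEH, and that of Mmp8 was 28.6% in CCR3 and 4.50% in VEH.

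**Figure D4:**
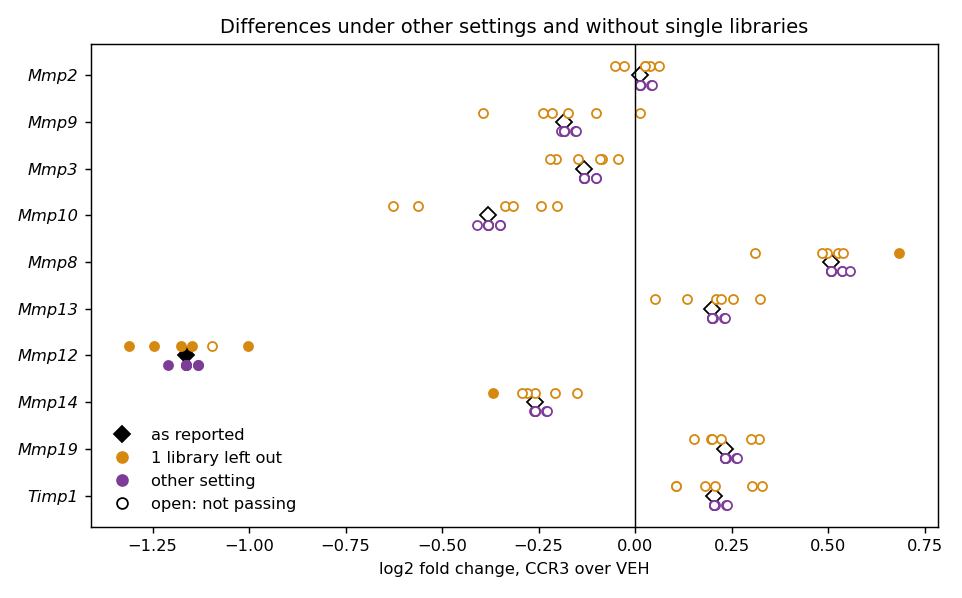
Log2 fold change, CCR3 over VEH (horizontal axis), as reported (diamonds), without 1 library at a time (orange) and under other settings (purple); filled symbols passed the adjusted threshold. Mmp12 stays between -1.31 and -1.0 without single libraries and is open at -1.10, without VEH replicate 4. Mmp8 and Mmp14 each have 1 filled point.

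The rest of the metalloproteinase system was described by lists. Of 14 other metalloproteinase genes Mmp20 and Mmp21 were not analysed here and 8 were tested. Of these, 2 were lower in CCR3 and 6 did not pass, with a median log2 fold change of -0.14. Mmp11, or stromelysin-3, an enzyme of stromal cells, fell to 6.88 ± 1.46 FPKM in CCR3, against 14.7 ± 2.44 FPKM in VEH (SD, n = 3 each; limma adjusted p = 0.0177). Mmp23, a membrane-anchored member, fell to 6.24 ± 0.656 FPKM in CCR3, against 9.17 ± 0.866 FPKM in VEH (SD, n = 3 each; limma adjusted p = 0.0355). Mmp1b, a rodent gene of the collagenase-1 type, stood at 1.11 FPKM in CCR3 skin and 1.67 FPKM in VEH skin and did not pass. Mmp11 lost its call without CCR3 replicate 1, VEH replicate 1 or VEH replicate 4 (adjusted p up to 0.0822), and Mmp23 kept it only without CCR3 replicate 4 (up to 0.139 otherwise). Mmp1a, Mmp7, Mmp16 and Mmp17 were below the filter in both groups.

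Of 6 other inhibitors 5 were tested and 1 was higher, with a median of 0.15. A2m, which encodes the broad protease trap alpha-2-macroglobulin, rose to 8.14 ± 0.497 FPKM in CCR3, against 4.73 ± 0.681 FPKM in VEH (SD, n = 3 each; limma adjusted p = 0.0137), a call lost without VEH replicate 2 or VEH replicate 4 (up to 0.0766). Reck, a membrane-anchored inhibitor, stood at 15.4 FPKM in CCR3 skin and 13.3 FPKM in VEH skin, and Timp3, the matrix-bound TIMP, at 137 FPKM in CCR3 skin and 123 FPKM in VEH skin, and neither passed. None of 6 tested genes of plasminogen activation, which feeds metalloproteinase activation, passed by limma (3 at an unadjusted p under 0.05), and all 6 were negative (median -0.18). Over all 13063 tested genes, the background for each list, 23.1% were at an unadjusted limma p under 0.05 and 7812 were negative. Serpinb2 stood at 137 FPKM in CCR3 skin and 175 FPKM in VEH skin, and the plasminogen activator gene Plat at 12.2 FPKM in CCR3 skin and 14.1 FPKM in VEH skin.

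None of the 11 activators and binding partners of metalloproteinases passed by limma (2 at an unadjusted p under 0.05), with a median of -0.01. The proprotein convertase gene Pcsk6 stood at 13.0 FPKM in CCR3 skin and 10.5 FPKM in VEH skin, the thrombospondin gene Thbs1 at 100.4 FPKM in CCR3 skin and 81.8 FPKM in VEH skin, and the integrin gene Itgav at 16.6 FPKM in CCR3 skin and 15.0 FPKM in VEH skin. Of 17 tested ADAM and ADAMTS genes, which encode related metalloproteinases, 1 was higher and 16 did not pass (median 0.00). Adamts9, a protease of the proteoglycan versican, rose to 5.66 ± 0.719 FPKM in CCR3, against 3.29 ± 0.50 FPKM in VEH (SD, n = 3 each; limma adjusted p = 0.0256), and lost the call without CCR3 replicate 1, VEH replicate 1 or VEH replicate 4 (up to 0.12). Adamts10 stood at 3.60 FPKM in CCR3 skin and 5.06 FPKM in VEH skin, and Adamts1, a further versican protease, at 43.1 FPKM in CCR3 skin and 32.0 FPKM in VEH skin, without passing.

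None of the 18 matrix substrate genes passed by limma (3 at an unadjusted p under 0.05), with a median of 0.08. The versican gene Vcan averaged 20.6 FPKM in CCR3 skin and 15.6 FPKM in VEH skin (adjusted p = 0.0772), the laminin chain gene Lamb3 at 16.5 FPKM in CCR3 skin and 14.2 FPKM in VEH skin, and the hemidesmosome collagen gene Col17a1 at 73.1 FPKM in CCR3 skin and 55.0 FPKM in VEH skin. Of 10 tested cytokine genes known to induce metalloproteinases in various cells, 6 were lower in CCR3 and 4 did not pass (median -0.81). These were Il6, Il1b, Tnf, Il4, Il13 and Osm, with log2 fold changes of -1.0, -1.13, -0.92, -0.97, -0.77 and -0.85 (limma adjusted p from 0.00182 for Il6 to 0.0340 for Osm). Of 10 subunits of AP-1 and related factors 3 were lower and 7 did not pass (median -0.33): Fosb, Atf3 and Jund, with log2 fold changes of -2.81, -1.37 and -0.39 (limma adjusted p = 0.0137, 0.0126 and 0.0385). Il6, Il1b and Tnf held their call without each library in turn. The other 6 genes each lost it without at least 1, and Il13 and Fosb were below the filter in 3 of the 6 fits. Il13 averaged 0.41 FPKM in CCR3 skin and 1.42 FPKM in VEH skin. Both Il13 and Fosb were under 1 FPKM in every CCR3 library. They met the filter only through VEH, where they are high, so their calls are only a description.

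**Figure D5:**
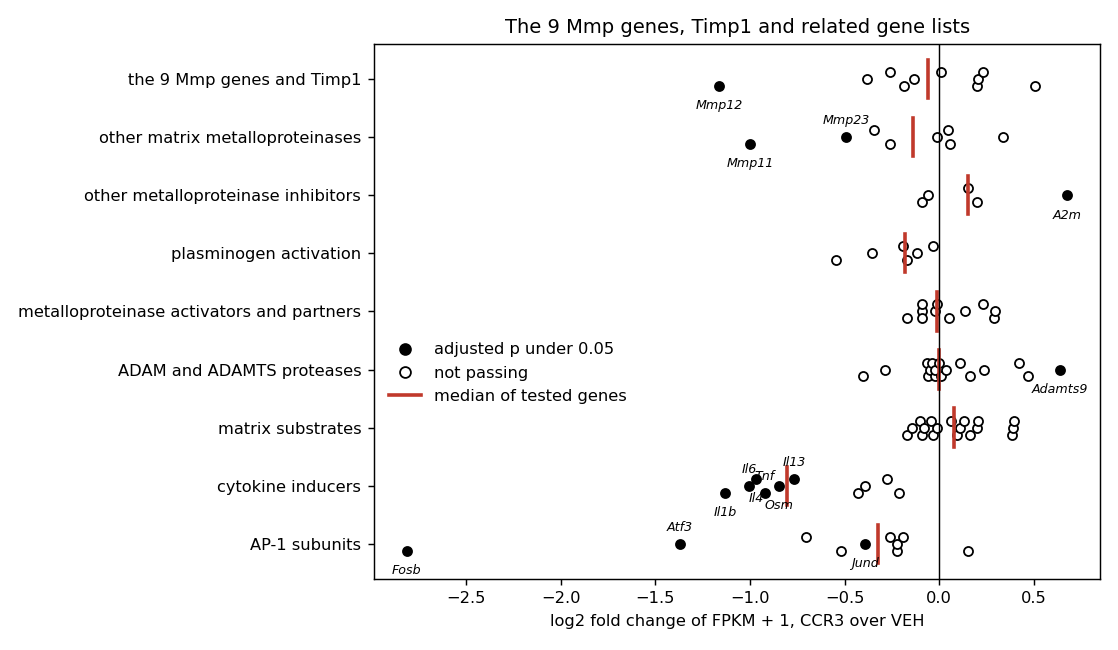
Log2 fold change of FPKM + 1, CCR3 over VEH (horizontal axis), of the tested genes of each list (points, filled and named where the adjusted p was under 0.05); red bars are medians. Among proteases and inhibitors the filled points are Mmp12, Mmp11 and Mmp23 (lower) and A2m and Adamts9 (higher), and the cytokine list has its median at -0.81.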

How the data were processed

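Per the labels' protocols, poly(A) RNA of skin was sequenced from 1 end for 50 bases. Per the submitters' processing notes the aligner was HISAT. The sources used here do not give its version, the build, the annotation or the counting tool. The authors deposited FPKM values of 18824 genes in 6 libraries, rounded to 2 decimals. FPKM sums were 517764 to 553305 per library. A step of 1 read was sought in low values. Values close to the smallest value of their gene were left out. Of the 7640 others, 13.9% lay within 0.1 of a whole multiple of the gene's smallest value. Evenly spread values would give 20%, a share that does not strictly apply after this cut. The smallest value can hold several reads, so the check could not exclude such a step, and depth is unknown. The authors' FPKM is relative, so a rise of abundant transcripts lowers other values.

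Libraries were grouped by title. Values were transformed to log2(FPKM + 1), which understates changes of low genes, and tested with limma 3.58.1 in R 4.3.3 (variance trend, 2-sided, 95% intervals unadjusted), leaving out 5761 low genes. The step was tested on simulated data. Nothing in the labels says that replicates are separate mice, so each p-value reflects the spread of these 6 libraries, which may be technical. Pearson's r across genes was 0.987 to 0.996 within groups and 0.981 to 0.991 between them.

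The 10 genes and the 14 other lists were chosen with earlier results of these data known. Named from each related list are the 3 genes with the smallest p and every called gene, and for the gene with the smallest p among the 10, the 3 most alike; 1 gene that this rule names is not reported here. Other genes (Mertk, Pdgfrb, Cldn5, Kdr, Cd68, Adgre1, Cxcr2 and the 6 other tested neutrophil markers, Mpo, Elane, Tmem198b, Mmp1a, Mmp7, Mmp16 and Mmp17) were chosen after their values were seen. Shared 50-base windows were counted in the longest coding transcript of each gene (GENCODE M21). Alternatives were 2 other scalings, a pseudocount of 0.1, no filter, a stricter one of 3 FPKM, a robust trend, no trend, a replicate block and each library left out. Python 3.11.15 and matplotlib 3.10.9 drew the plots.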

Additional observations from a re-analysis of the deposited data

How the results depend on the processing

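Of 140 values of the 10 genes under other settings, 134 kept their direction and their side of the threshold. Mmp12 alone lost its call, without VEH replicate 4 (log2 fold change -1.10, limma adjusted p = 0.0651), Mmp8 and Mmp14 each gained one, and the sign turned for Mmp2 without CCR3 replicate 4 or VEH replicate 2 (range without single libraries -0.052 to 0.063) and for Mmp9 without CCR3 replicate 2 (range -0.39 to 0.013), genes that did not pass. Over all genes, 178 were higher and 310 lower in CCR3 as reported. The counts were 91 and 130 with no filter, 158 and 173 after scaling to equal FPKM sums, 230 and 261 with median-centred values, and 89 and 144 with the replicate block, under which Mmp12 still passed (adjusted p = 0.0300). The share of higher calls was 36.5% as reported, 46.8% median-centred and 47.7% with equal sums. Higher and lower counts were 57 and 81, 143 and 175, and 551 and 1087 without CCR3 replicates 1, 2 and 4, and 35 and 39, 51 and 64, and 29 and 45 without VEH replicates 1, 2 and 4. Of the 10 genes, 0 to 1 were then higher and 0 to 2 lower. Equal replicate numbers did not deviate together (r across genes -0.06, 0.08 and -0.03 for numbers 1, 2 and 4), and CCR3 replicate 2 alone correlated best with its own number. The cause of these changes was not tested. With 3 libraries a group and unknown depth, the intervals of Mmp9 and Mmp10 are wide.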
